A study of Homo sapiens with 6 samples.

Results

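The genes of glucose uptake and of the first committed steps of glycolysis were followed in AC16 cells at 28 °C and 37 °C. These were the transporter genes SLC2A1 and SLC2A3, the hexokinase genes HK1 and HK2, the phosphofructokinase genes PFKL, PFKM and PFKP, and the genes PFKFB2, PFKFB3 and PFKFB4. For each gene the array feature that carried its symbol alone was taken, with older symbols brought up to date. Where a gene had several such features, the one with the highest mean signal over the 6 arrays would have been used, but each of the 10 genes had exactly 1. By RefSeq the genes lie on chromosomes 1 (SLC2A1 and PFKFB2), 2 (HK2), 3 (PFKFB4), 10 (HK1, PFKP and PFKFB3), 12 (SLC2A3 and PFKM) and 21 (PFKL). The 10 genes stand among 22411 genes with a feature of their own and among 70523 features in all. Features were thus to be selected on the mean signal over all arrays, not on the difference between the temperatures. With 1 feature for each gene, no such choice arose. The 10 genes themselves were chosen with earlier results of these data known, so the set is not independent of the difference between the temperatures.

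The study exposed cultured heart-derived cells to cold and measured their total RNA on Affymetrix arrays. The hypothermia group was 3 arrays of AC16 cells held at 28 °C for 6 h, and the control group was 3 arrays of AC16 cells held at 37 °C for 6 h. The labels name no altered gene and no drug in either group, and 1 serum-supplemented medium for both. The signals are log2 values that the authors made with RMA, and every fold change below is hypothermia minus control on that scale. No source used here says that samples of 1 group came from separate cultures. The p-values then reflect only how far these samples scatter, and that scatter may be technical. AC16 is a human line derived from adult ventricular cardiomyocytes fused with transformed fibroblasts, so it models a dividing cell with some cardiac traits rather than a beating myocyte. Of 15 cardiomyocyte markers measured, NPPB averaged 9.12 ± 0.104 at 28 °C and 9.15 ± 0.0494 at 37 °C (SD, n = 3 each). ACTC1 averaged 5.55 ± 0.0544 at 28 °C and 5.51 ± 0.0345 at 37 °C (SD, n = 3 each). The other 13, among them MYH6, MYH7, TTN, RYR2 and PLN, had means under 5, and TTN (2.37 at 28 °C and 2.34 at 37 °C), RYR2 and PLN lay below the median background feature of every array (2.47 to 2.60). Of 12 fibroblast markers, 7 had means of at least 5, COL1A1, FN1 and VIM above 10 in both groups, and 5 (PDGFRA, DCN, LUM, POSTN and S100A4) had means under 5. No cardiomyocyte, fibroblast, endothelial or leukocyte marker passed the test between the temperatures. Over all features 0.227% passed as higher and 0.591% as lower, so no call among so few markers says little about the cells. Means were also under 5 in 5 of 6 endothelial and 5 of 6 leukocyte markers. The summed log2 signal of the 15 cardiomyocyte markers was 64.5 to 64.9 at 28 °C and 63.1 to 64.7 at 37 °C, and that of the 12 fibroblast markers was 80.4 to 80.7 at 28 °C and 79.9 to 80.5 at 37 °C. An array of total RNA cannot tell a change in RNA per cell from a change in which cells were present.

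Glucose enters most cells through facilitative transporters, of which GLUT1 (SLC2A1) serves basal uptake and GLUT3 (SLC2A3) has a high affinity for glucose. Hexokinases phosphorylate the sugar and so trap it in the cell. HK1 is the widely expressed form, and HK2 is the inducible form of insulin-sensitive tissues such as heart and skeletal muscle. Phosphofructokinase then commits the sugar to glycolysis. It is a tetramer of liver (PFKL), muscle (PFKM) and platelet (PFKP) subunits. Its most potent activator, fructose bisphosphate with a phosphate at the second carbon, is made and broken down by the bifunctional PFKFB enzymes. PFKFB2 is the heart form, PFKFB3 is an inducible form that mostly makes the activator, and PFKFB4 was first found in testis. The adult heart burns mainly fatty acids and turns to glucose under stress.

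Of the 10 genes, 2 were higher at 28 °C and 0 were lower in limma at an adjusted p under 0.05. These were HK2 and PFKFB3. Over all 70523 features 0.227% were higher and 0.591% were lower in limma. Among the 10339 genes with a mean signal of at least 5, a level that 9 of the 10 genes reached, 0.832% were higher and 1.26% were lower. An unadjusted p under 0.05 was met by 5 of the 10 genes and by 11.5% of all features. The same 5 genes, SLC2A1, SLC2A3, HK2, PFKFB3 and PFKFB4, had every array at 28 °C above every array at 37 °C, a pattern seen in 9.38% of all features. In the other 5 genes the groups overlapped. The median log2 fold change of the 10 genes was 0.12, and that of all features was 0.03. The genes had been chosen with results of these arrays known, so these counts describe them and carry no test of their own. The plot of the signals by array shows the values from which these counts come.

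**Figure D1:**
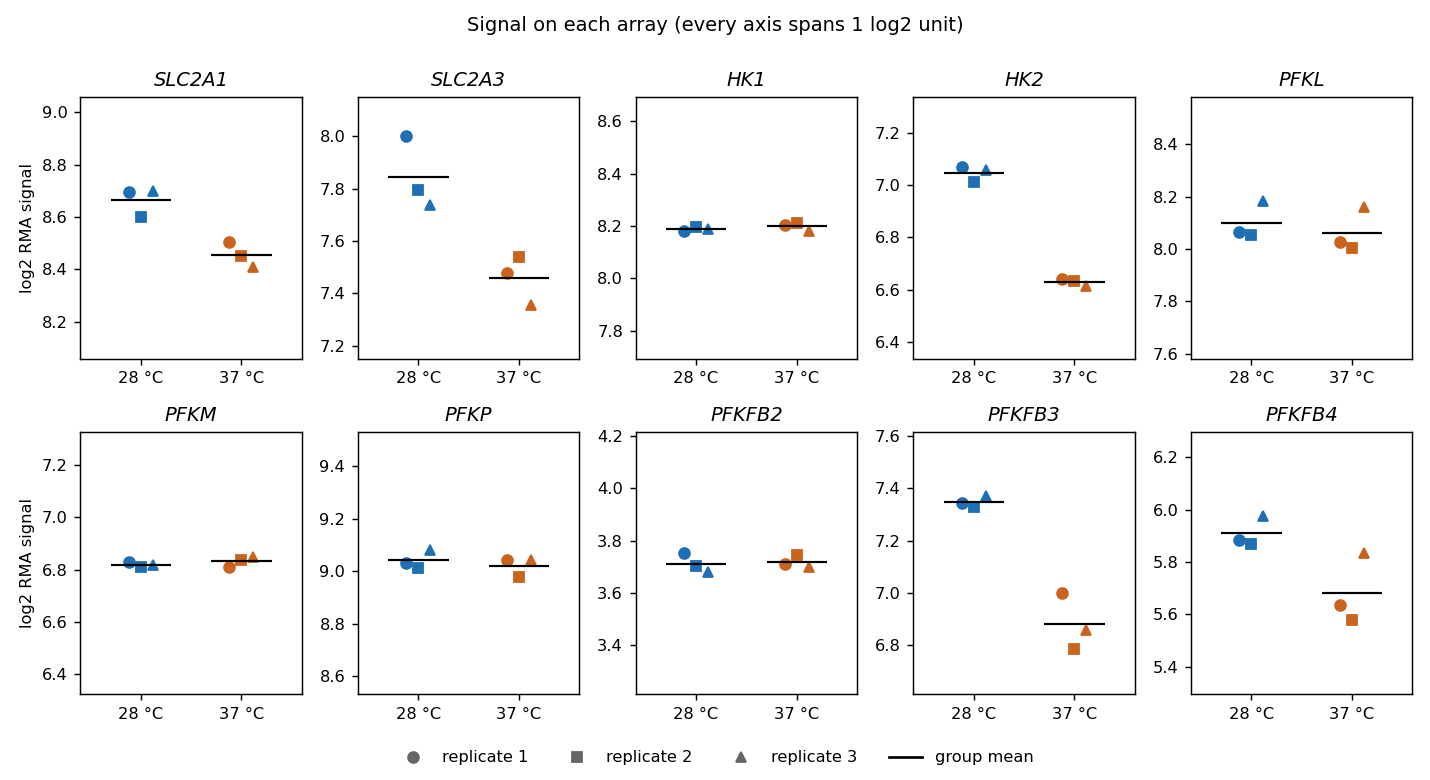
Log2 RMA signal of each of the 10 genes on each array, with hypothermia (28 °C) on the left and control (37 °C) on the right of each panel; symbols mark the replicate, horizontal lines the group means, and every vertical axis spans 1 log2 unit. The points at 28 °C all lie above those at 37 °C in SLC2A1, SLC2A3, HK2, PFKFB3 and PFKFB4, and the groups overlap in the other 5 panels.

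SLC2A3, the gene of the transporter GLUT3, had signals of 8.0, 7.79 and 7.74 at 28 °C and 7.48, 7.54 and 7.36 at 37 °C. All hypothermia arrays lay above all control arrays, and the nearest pair was 0.198 apart. The group means were 7.84 ± 0.138 at 28 °C and 7.46 ± 0.0929 at 37 °C (SD, n = 3 each). The log2 fold change was 0.39 (95% confidence interval 0.18 to 0.59, adjusted p = 0.132 from limma), so SLC2A3 did not pass the adjusted threshold. Of all 22411 genes, 0.794% had a higher log2 fold change. SLC2A1, the gene of GLUT1, had signals of 8.69, 8.60 and 8.70 at 28 °C and 8.50, 8.45 and 8.41 at 37 °C. Here the groups stood 0.0949 apart without overlap. Its log2 fold change was 0.21 (95% confidence interval 0.06 to 0.36, adjusted p = 0.26 from limma). Neither transporter passed in any of the 16 alternative fits, in which the log2 fold change ran between 0.31 and 0.48 for SLC2A3 and between 0.17 and 0.25 for SLC2A1.

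SLC2A14 encodes a transporter nearly identical in sequence to GLUT3, and both genes lie on chromosome 12. Probes for SLC2A3 and SLC2A14 may pick up RNA of either gene, so their signals may not be told apart. The SLC2A14 feature read 6.30, 6.14 and 6.11 at 28 °C and 5.90, 5.93 and 5.92 at 37 °C, with no overlap. Its log2 fold change was 0.27 (95% confidence interval 0.10 to 0.43, adjusted p = 0.184 from limma). SLC2A4, the gene of the insulin-regulated transporter GLUT4 of heart, muscle and fat, had a low signal, 4.47 ± 0.0443 at 28 °C and 4.37 ± 0.0549 at 37 °C (SD, n = 3 each). Its groups overlapped, and its log2 fold change was 0.11 (adjusted p = 0.576 from limma).

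HK2, which encodes the inducible hexokinase, rose at 28 °C. Its signals were 7.07, 7.01 and 7.06 at 28 °C and 6.64, 6.63 and 6.62 at 37 °C. The 3 arrays of each group lay close together and the groups were 0.371 apart. The means were 7.05 ± 0.0307 at 28 °C and 6.63 ± 0.0121 at 37 °C (SD, n = 3 each). The log2 fold change was 0.42 ± 0.0589 (standard error; limma, adjusted p = 0.025), a 1.33-fold increase with a 95% confidence interval of 1.21 to 1.47. HK1, the constitutive hexokinase, read 8.18, 8.20 and 8.19 at 28 °C and 8.20, 8.21 and 8.18 at 37 °C. These groups overlapped, and the log2 fold change was -0.01 (95% confidence interval -0.14 to 0.12, adjusted p = 0.959 from limma). HK2 passed the threshold in 8 of the 16 alternatives, among them the fit without control replicate 3 (adjusted p = 0.0389). Among the 8 it missed were those without hypothermia replicate 1, 2 or 3 (adjusted p = 0.123, 0.11 and 0.117), without control replicate 1 or 2 (0.11 and 0.0715) and that with the mean of the brighter background features as a covariate (0.0941), while its log2 fold change ran between 0.38 and 0.45 over all 16 alternatives.

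The sequence before the start of HK2 is shown because HK2 was 1 of the 2 genes that passed, and because members of this pathway are known targets of factors that bind short elements there. RefSeq, on the build GRCh38.p14, gives HK2 a pair of start sites on chromosome 2, plus strand, and the 250 bases before each were searched on both strands. Capitals mark the cores of the hypoxia response element, ACGTG and GCGTG, in either orientation, so that they read as CACGT or CACGC where the core is on the other strand. The E-box CACGTG, bound by MYC and by the clock factors, contains ACGTG on both strands.
HK2, first start, chr2:74833877-74834126: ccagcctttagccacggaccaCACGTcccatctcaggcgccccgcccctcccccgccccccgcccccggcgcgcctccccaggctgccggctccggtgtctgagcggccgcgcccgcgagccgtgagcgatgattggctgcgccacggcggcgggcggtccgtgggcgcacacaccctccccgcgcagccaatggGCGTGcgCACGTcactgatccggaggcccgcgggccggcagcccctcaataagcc
HK2, second start, chr2:74834920-74835169: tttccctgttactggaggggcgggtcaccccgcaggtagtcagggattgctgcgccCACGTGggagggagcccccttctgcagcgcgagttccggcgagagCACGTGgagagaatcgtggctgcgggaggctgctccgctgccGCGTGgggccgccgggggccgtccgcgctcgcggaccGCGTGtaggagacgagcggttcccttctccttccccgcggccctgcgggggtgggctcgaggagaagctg
The first window holds ACGTG 2 times and GCGTG 1 time. The second window lies within the gene as annotated from the first start. It holds the E-box 2 times, at 194 and 149 bases before the start, and GCGTG 2 times at 107 and 70 bases before it. Of 35116 windows of this length before RefSeq starts, 18.5% hold ACGTG, 32.2% hold GCGTG and 6.34% hold CACGTG. The windows of HK2 are rich in G and C, at 76.8% and 71.6%, against a median of 58.0% over all windows. A match is a description of the letters and not a site of binding.

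None of the 3 phosphofructokinase subunit genes passed the test, and their log2 fold changes lay near 0. PFKL read 8.06, 8.06 and 8.18 at 28 °C and 8.03, 8.002 and 8.16 at 37 °C, and replicate 3 was the highest in both groups. PFKM, the subunit of muscle and heart, read 6.83, 6.81 and 6.82 at 28 °C and 6.81, 6.84 and 6.85 at 37 °C. PFKP read 9.03, 9.01 and 9.08 at 28 °C and 9.04, 8.98 and 9.04 at 37 °C. In each subunit gene the groups overlapped. The log2 fold changes were 0.04 for PFKL, -0.01 for PFKM and 0.02 for PFKP, with an adjusted p of 0.873, 0.948 and 0.922 from limma. Their 95% confidence intervals were -0.13 to 0.21, -0.15 to 0.12 and -0.12 to 0.16 in that order, which leaves room for small changes in either direction. The sign of each of these values turned under at least 1 alternative.

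PFKFB3, which encodes the inducible enzyme that makes the activator of phosphofructokinase, rose at 28 °C with the largest log2 fold change of the 10 genes. Its signals were 7.34, 7.33 and 7.37 at 28 °C and 7.002, 6.79 and 6.86 at 37 °C. The hypothermia arrays lay close together, the control arrays were more widely spread, and the groups were 0.328 apart. The means were 7.35 ± 0.0207 at 28 °C and 6.88 ± 0.11 at 37 °C (SD, n = 3 each). The log2 fold change was 0.46 ± 0.0736 (standard error; limma, adjusted p = 0.0372), a 1.38-fold increase with a 95% confidence interval of 1.23 to 1.55. Of the 22411 genes, 0.455% had a higher log2 fold change. The adjusted p of PFKFB3 missed the threshold in each fit that left out 1 array, at 0.148, 0.152 and 0.154 without hypothermia replicate 1, 2 or 3 and at 0.059, 0.103 and 0.0585 without control replicate 1, 2 or 3. It also missed it with each array centred on its median (0.0644) and with the brighter background as a covariate (0.154), and the log2 fold change stayed between 0.40 and 0.52 over all 16 alternatives.

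PFKFB4 had signals of 5.88, 5.87 and 5.98 at 28 °C and 5.64, 5.58 and 5.84 at 37 °C. Control replicate 3 came within 0.0327 of the lowest hypothermia array. The log2 fold change was 0.23 (95% confidence interval 0.03 to 0.42, adjusted p = 0.351 from limma). It was 0.10 with the brighter background as a covariate (adjusted p = 0.715) and 0.30 without control replicate 3 (adjusted p = 0.0913). PFKFB2, the heart form, had a low signal of 3.75, 3.70 and 3.68 at 28 °C and 3.71, 3.74 and 3.70 at 37 °C. Its groups overlapped, with a log2 fold change of -0.00445 (95% confidence interval -0.14 to 0.13, adjusted p = 0.986 from limma). Background features had a median of 2.47 to 2.60 on each array and single means of 1.76 to 10.9, so whether PFKFB2 lay above its own background was not determined.

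**Figure D2:**
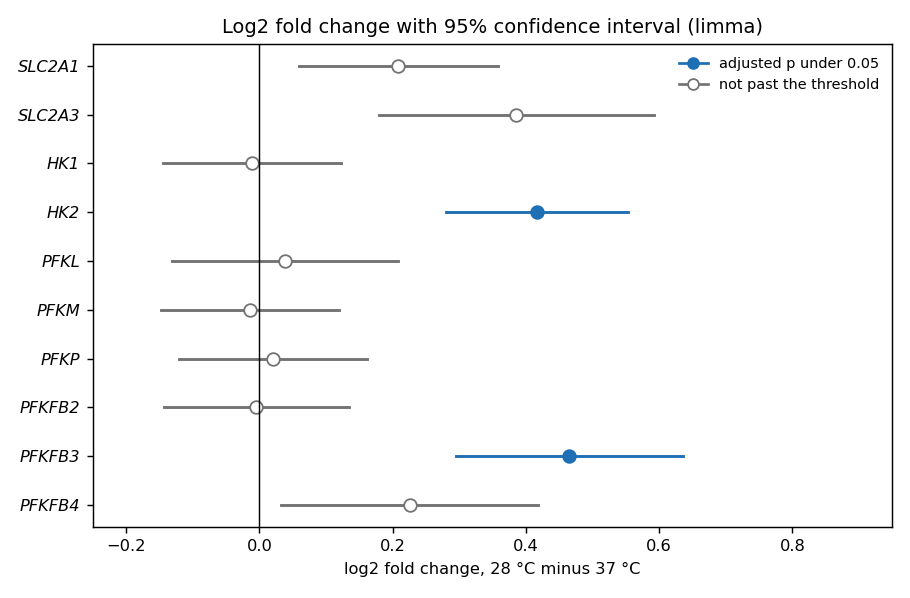
Log2 fold change of each gene, hypothermia (28 °C) minus control (37 °C), with its 95% confidence interval from limma; filled blue points passed an adjusted p under 0.05 and open grey points did not. HK2 at 0.42 and PFKFB3 at 0.46 are the filled points, and the intervals of HK1, PFKL, PFKM, PFKP and PFKFB2 include 0.

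RefSeq gives PFKFB3 a pair of windows on chromosome 10, plus strand. The second is shown because it holds an E-box, as the second window of HK2 does. Capitals mark the same letters.
PFKFB3, second start, chr10:6202682-6202931: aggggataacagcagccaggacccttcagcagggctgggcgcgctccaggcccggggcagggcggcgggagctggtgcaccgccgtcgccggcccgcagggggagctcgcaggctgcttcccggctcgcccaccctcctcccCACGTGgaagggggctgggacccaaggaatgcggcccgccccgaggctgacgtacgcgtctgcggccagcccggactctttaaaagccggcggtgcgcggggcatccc
The E-box begins 108 bases before the start. The first window of PFKFB3, chr10:6144671-6144920, holds GCGTG 1 time, on the opposite strand, and no ACGTG. Windows were found for 8 of the 10 genes, 25 windows in all, and SLC2A3 and PFKFB2 had none in the table. The E-box was found in 2 of the 25 windows, 1 of HK2 and 1 of PFKFB3 (6.34% of all windows hold it), a share too close to that of all windows to say anything about these genes. The core ACGTG was found in 5 of the 25 windows, of 4 genes (HK2, PFKM, PFKP and PFKFB3), and the core GCGTG in 7 windows, of 6 genes (HK1, HK2, PFKL, PFKP, PFKFB3 and PFKFB4). The window of SLC2A1 held no match to any motif searched. The AP-1 letters TGAGTCA stood in 2 windows of HK1 (4.2% of all windows hold them). GCGTGGGCG, an early growth response element that contains GCGTG, stood in 1 window of PFKP (0.72% of all windows). The cAMP response element TGACGTCA was in none of the 25 (1.65% of all windows). The genes have between 1 and 7 windows each and some of these overlap, so the counts are not of independent sequences.

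Members of a family were then compared within each array, as the difference between their log2 signals, which removes any shift common to an array. The level of 1 probe set cannot be set against that of another, so only the change of this difference between the temperatures was read. HK2 minus HK1 was higher at 28 °C by 0.43, with SDs of 0.0366 at 28 °C and 0.00949 at 37 °C (n = 3 each) and no overlap (exact permutation p = 0.1). PFKFB3 minus PFKFB2 was higher by 0.47 and PFKFB3 minus PFKFB4 by 0.24, again with no overlap (exact permutation p = 0.1 for each). Without control replicate 3, PFKFB3 minus PFKFB4 differed by 0.15. SLC2A3 minus SLC2A1 differed by 0.18 and PFKFB4 minus PFKFB2 by 0.23, and in both pairs the groups overlapped (exact permutation p = 0.2 for each). Without hypothermia replicate 1, SLC2A3 minus SLC2A1 differed by 0.11. The 3 pairs of phosphofructokinase subunits differed by -0.02 (PFKP minus PFKL), 0.03 (PFKP minus PFKM) and -0.05 (PFKM minus PFKL), each within the spread of the arrays. The tests were two-sided, and 3 arrays against 3 cannot give a p below 0.1. Adjusted over the 8 pairs by Benjamini-Hochberg, the lowest value was 0.267, so no pair passed.

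**Figure D3:**
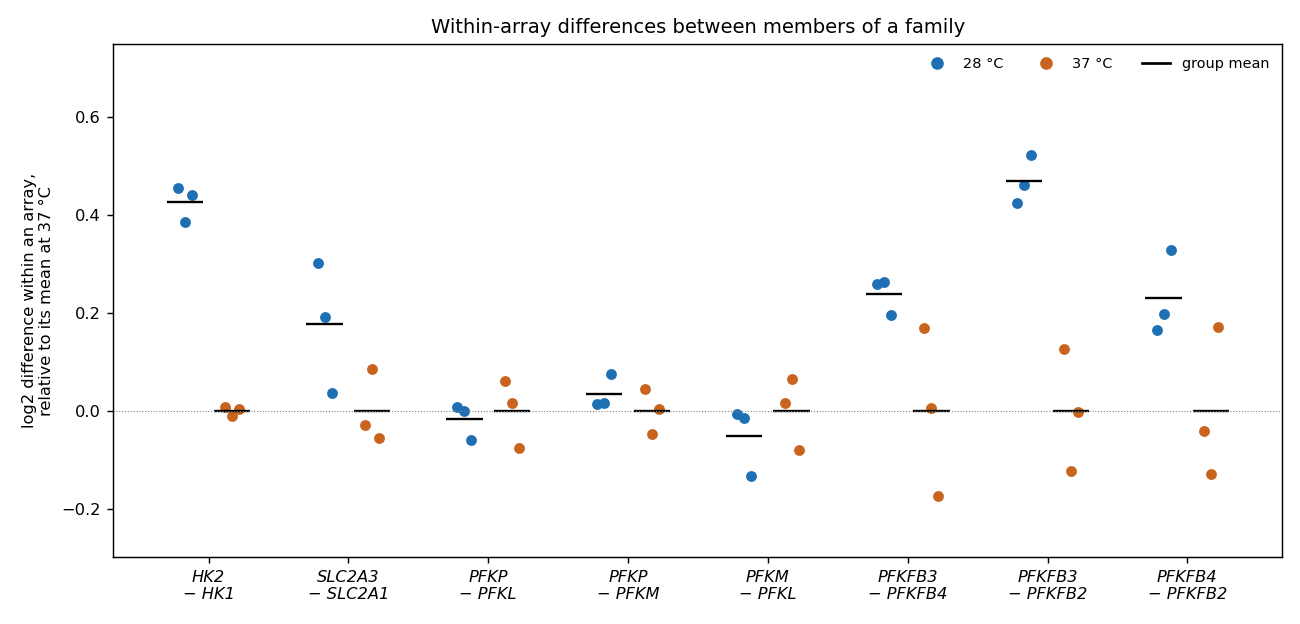
Difference in log2 signal between members of a family within each array, relative to its mean at 37 °C, for 8 pairs; blue points on the left are the hypothermia arrays (28 °C), orange points on the right the control arrays (37 °C), and lines are group means. The groups do not overlap in HK2 minus HK1, PFKFB3 minus PFKFB4 and PFKFB3 minus PFKFB2.

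The rest of glucose metabolism was described through 7 lists, which hold 85 measured genes. 1 of these passed the test, and it was higher at 28 °C. No gene of the lists was lower. Over all features 0.227% were higher and 0.591% lower in limma, and counts this small are near those shares. Of 15 other glucose transporters and hexose kinases 0 passed, and their median log2 fold change was 0.05. Of 18 other glycolytic enzymes 0 passed, and 1 had an unadjusted p under 0.05, against 11.5% of all features. Their log2 fold changes ran between -0.13 and 0.16 with a median of 0.04. ENO2, the neuronal form of enolase, read 7.73, 7.73 and 7.85 at 28 °C and 7.60, 7.55 and 7.68 at 37 °C, or 0.16 higher on the log2 scale (limma, unadjusted p = 0.049, adjusted p = 0.432). GAPDH, the dehydrogenase in the middle of glycolysis, read 11.94, 11.999 and 11.96 at 28 °C and 11.89, 11.88 and 11.84 at 37 °C, or 0.10 higher (limma, adjusted p = 0.569). All arrays at 28 °C lay above all arrays at 37 °C in ENO2 and in GAPDH, by 0.0518 and 0.0525. In all, 3 of the 18 enzymes had this pattern, against 9.38% of all features, and 2 had the reverse, with all arrays at 28 °C below. The share of all features with the reverse is not given here, so those 2 cannot be set against it.

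The opposing and neighbouring routes also gave no calls. Over all features 0.227% were higher and 0.591% lower in limma, so 0 calls in lists this short says little about them. Of 8 genes of fructose bisphosphatases and gluconeogenesis 0 passed and 0 had an unadjusted p under 0.05, against 11.5% of all features. G6PC3, a glucose phosphatase present in most tissues, differed by 0.11 on the log2 scale (adjusted p = 0.545), and FBP2, the muscle fructose bisphosphatase, had 0.10 (adjusted p = 0.591), with signals of 2.80 at 28 °C and 2.70 at 37 °C that lie near background. Of 14 genes of pyruvate and lactate handling 0 passed and 1 had an unadjusted p under 0.05. PDP1, the phosphatase that activates pyruvate dehydrogenase, had 0.23 (adjusted p = 0.33), and DLAT, a core subunit of that complex, had -0.16 (adjusted p = 0.501). Of 6 genes of the pentose phosphate pathway 0 passed and 1 had an unadjusted p under 0.05. RPIA, a pentose isomerase, had -0.18 (adjusted p = 0.43), and H6PD, the dehydrogenase of the endoplasmic reticulum, had 0.08 (adjusted p = 0.664). Of 9 glycogen enzymes 0 passed and 2 had an unadjusted p under 0.05. GBE1, the branching enzyme, had -0.26 (adjusted p = 0.324), and PYGL, the liver glycogen phosphorylase, had -0.17 (adjusted p = 0.401). All these p-values, adjusted or not, come from limma.

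TXNIP was the 1 gene of 15 regulators of glucose uptake and glycolysis that passed. It encodes an arrestin-like protein that removes GLUT1 from the cell surface and lowers glucose uptake, and its transcription is known to follow glucose-derived signals. Its signals were 8.38, 8.32 and 8.30 at 28 °C and 7.87, 7.99 and 7.82 at 37 °C, with a gap of 0.307 between the groups. The log2 fold change was 0.44 ± 0.07 (standard error; limma, adjusted p = 0.0381), a 1.36-fold increase with a 95% confidence interval of 1.21 to 1.52. Among the 85 genes of the lists, TXNIP had the largest log2 fold change. It missed the threshold without hypothermia replicate 1, 2 or 3 (adjusted p = 0.167, 0.163 and 0.129), without control replicate 1 or 3 (0.168 and 0.055), with each array centred on its median (0.079) and with the brighter background as a covariate (0.0672), and passed without control replicate 2 (0.0485).

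Other regulators in the list gave values that did not pass. MYC, a transcription factor that binds the E-box, read 7.73, 7.74 and 7.73 at 28 °C and 7.61, 7.53 and 7.51 at 37 °C, or 0.18 higher on the log2 scale (limma, adjusted p = 0.3) with no overlap. HIF1A, the oxygen-regulated subunit of the hypoxia-inducible factor, had -0.07 (limma, adjusted p = 0.8), and its partner ARNT had -0.12 (limma, adjusted p = 0.507). All ARNT arrays at 28 °C lay below all those at 37 °C. Of the 15 regulators, 2 had every array at 28 °C above every array at 37 °C, against 9.38% of all features. In 2 every array was below, a pattern whose share of all features is not given here. PRKAA2, a catalytic subunit of AMP-activated kinase, had the lowest log2 fold change of the list, -0.33 (adjusted p = 0.356). The activity of HIF1A is set mainly through the stability of the protein, which an array of RNA does not measure. MYC, HIF1A, ARNT and PRKAA2 were picked for mention after their values were seen.

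**Figure D4:**
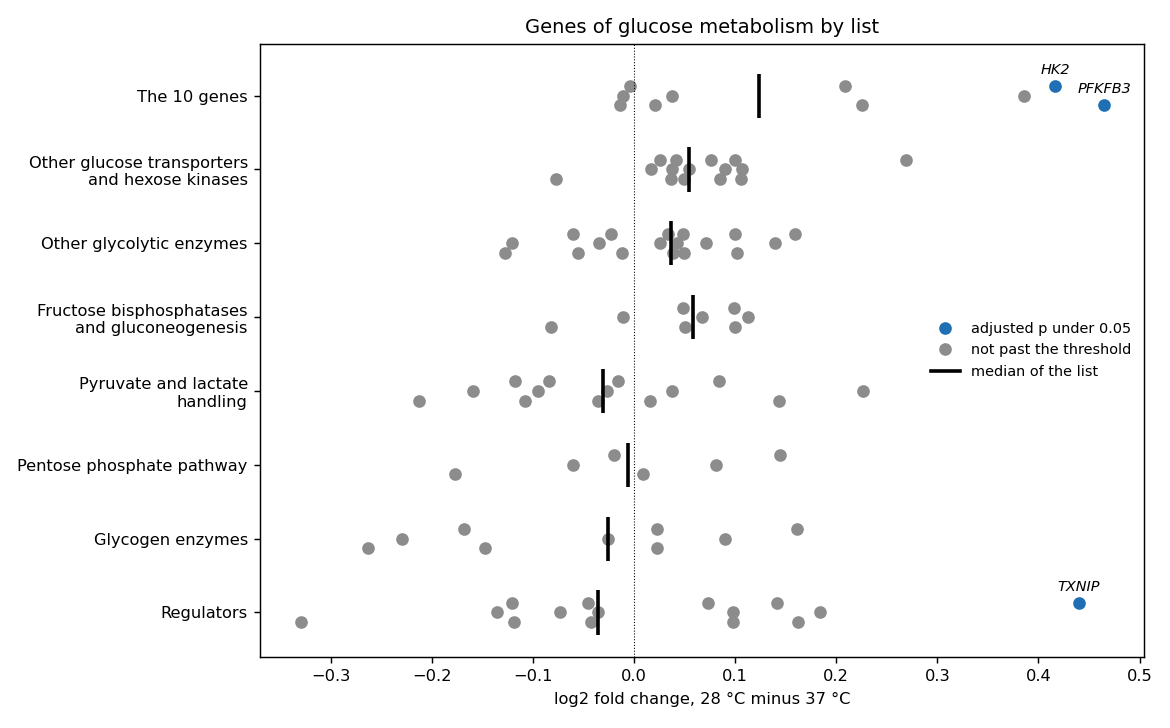
Log2 fold change (28 °C minus 37 °C) of each measured gene, in rows for the 10 genes and for the 7 lists of glucose metabolism; blue points passed an adjusted p under 0.05 in limma, grey points did not, and black bars are the medians. HK2, PFKFB3 and TXNIP are the blue points, and the 18 other glycolytic enzymes lie between -0.13 and 0.16.

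The genes whose pattern over the arrays was most like that of PFKFB3 or HK2 were found by the root mean square difference between centred log2 signals, over 6 arrays and 10338 genes. PFKFB3 was followed most closely by MIDEAS, a component of a histone deacetylase complex, at 0.0181. MIDEAS read 6.72, 6.67 and 6.70 at 28 °C and 6.33, 6.11 and 6.19 at 37 °C, so its control arrays had the order of those of PFKFB3. AMOTL2, an angiomotin family gene, and PRRX2, a homeobox gene, came next at 0.0411 and 0.0436. HK2 was followed most closely by AKAP8L, which encodes a nuclear protein, at 0.0257, and then by the clock gene PER2 and by TIPARP, which encodes an ADP-ribosyltransferase, both at 0.0376. PER2 read 5.96, 5.83 and 5.84 at 28 °C and 5.50, 5.43 and 5.46 at 37 °C. The arrays are shared by all these genes, and a likeness over 6 arrays is a description with no test.

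Control replicates 1 and 2 had a lower median signal and a lower brighter background than every hypothermia array, and control replicate 3 did not. The median signal over all features was 3.39 to 3.41 at 28 °C and 3.33 to 3.40 at 37 °C. The mean of the 11 brighter of 23 background features was 6.39 to 6.49 at 28 °C and 6.10 to 6.47 at 37 °C, and control replicate 3, at 6.47, lay among the hypothermia arrays. The brighter background features had a median log2 fold change of 0.18, with none past the threshold. In 0 of the 11 brighter features did every array at 28 °C lie above every array at 37 °C. The 12 dimmer background features had a median log2 fold change of 0.01. Whether the background bears on the values of any gene named here was not tested. Once the mean of the brighter features was a covariate, the log2 fold changes were 0.42 for HK2, 0.45 for PFKFB3, 0.48 for SLC2A3, 0.23 for SLC2A1, 0.10 for PFKFB4 and 0.51 for TXNIP, and none passed. The plot of the fold changes by setting shows PFKFB3, HK2 and SLC2A3 under each alternative.

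**Figure D5:**
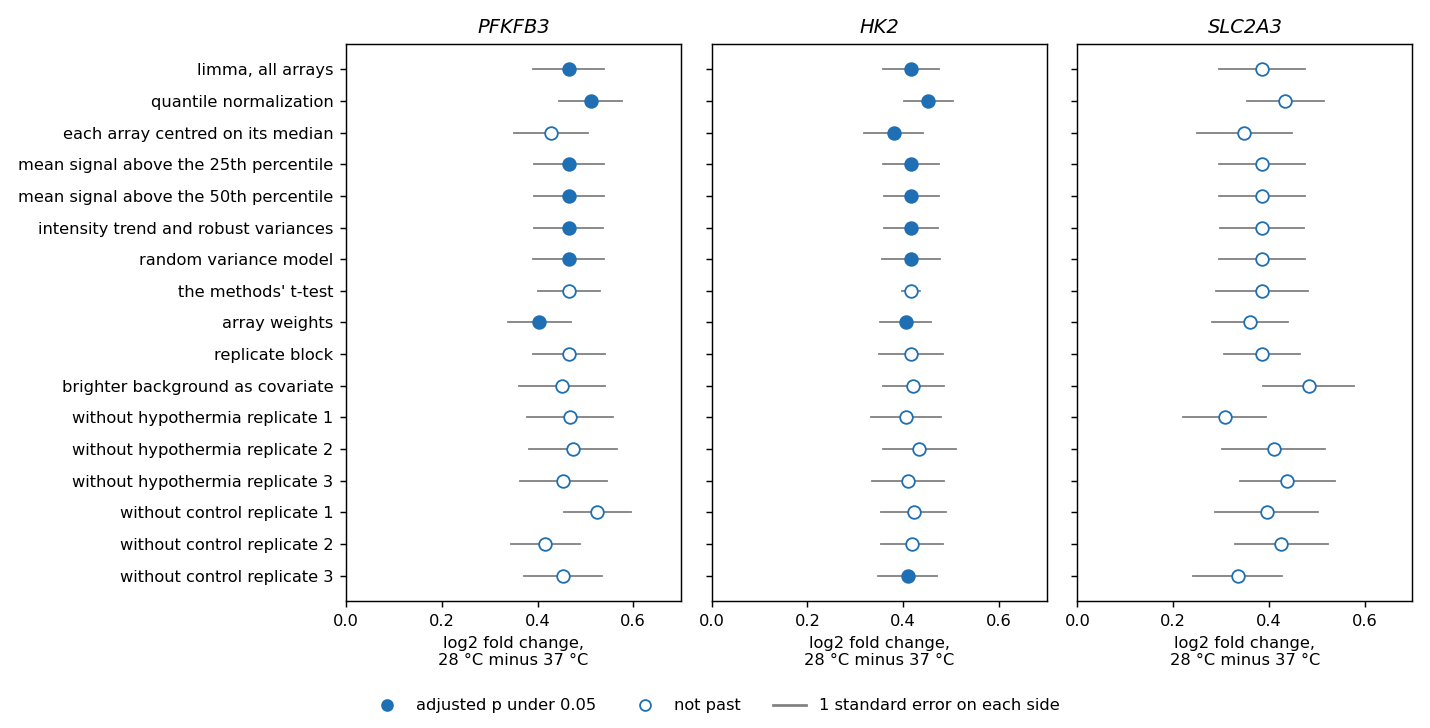
Log2 fold change (28 °C minus 37 °C) of PFKFB3, HK2 and SLC2A3 in limma with all arrays and under 16 alternatives, in rows; bars are 1 standard error on each side, and filled points passed an adjusted p under 0.05. The values of HK2 stay between 0.38 and 0.45 and pass in 8 of the 16 alternatives, those of PFKFB3 pass in 6, and those of SLC2A3 in none.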

How the data were processed

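Total RNA of AC16 cells was hybridised to 6 arrays, 3 for each temperature. RMA, a method that subtracts background, aligns the arrays and merges the probes of a feature, gave the log2 signals the authors deposited. Neither its version nor a genome build is given in the sources used here. These signals were taken as they are. The number of arrays limits the precision.

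Features were named through a platform annotation, in which 23781 features had 1 symbol, 1543 had several and 45199 had none. 23777 of the 23781 were found in a RefSeq gene table of GRCh38.p14, and 306 were renamed. Hypothermia and control were compared by limma 3.58.1 under R 4.3.3 (lmFit, eBayes), with group alone in the model and Benjamini-Hochberg adjustment over 70523 features and a threshold of 0.05. The fits were tested on simulated data. The methods name a random variance model for the arrays and Student's t-test for data in general, and both were fitted as alternatives.

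The genes, the lists and the alternatives were chosen with earlier results of these data known. The text names the 10 genes and, from each list of glucose metabolism, every gene that passed (at most 4) or else the 2 with the lowest unadjusted p. MYC, HIF1A, ARNT and PRKAA2, and the cell markers, are named outside this rule. For likeness it names 3 genes for each of the 10 that passed, searched among genes with a mean of at least 5. Alternatives were quantile normalization, median centring, filters on mean signal (25th or 50th percentile), an intensity trend with robust variances, array weights, a block on replicate number, the brighter background as a covariate and leaving out each array. Promoter sequences are from RefSeq, GRCh38.p14. Some genes of the lists are not reported here.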

Additional observations from a re-analysis of the deposited data

How the results depend on the processing

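HK2, PFKFB3, SLC2A1, SLC2A3, PFKFB4, SLC2A14 and TXNIP had a positive log2 fold change in each of the 16 alternatives. Most of these could not have turned the sign. The filters, the intensity trend, the random variance model, the t-test and the replicate block leave the fold change as it was. In these genes every hypothermia array lay above every control array, so omitting or weighting arrays keeps the sign too. Only quantile normalization, median centring and the background covariate could have turned it. The number of the 10 genes called higher, 2 in limma with all arrays, was 1 after centring each array on its median, 2 with the random variance model that the methods name for the arrays, and 0 with the plain Student's t-test that they name for data in general, with the replicate block and with the brighter background as a covariate. HK2, PFKFB3 and TXNIP had an adjusted p of 0.0246, 0.0353 and 0.0367 in the random variance model and of 0.123, 0.21 and 0.191 in the plain t-test. Leaving out 1 array gave 0 to 1, the 1 being HK2 without control replicate 3. Over all features the 160 higher and 417 lower became 249 and 628 when features in the lower 50 percent of mean signal were left out, which tests fewer features, 379 and 1107 with array weights, 66 and 105 with the covariate, 172 and 447 with the random variance model, and 0 and 0 with the plain t-test. The plain t-test called 3479 features higher and 3708 lower at an unadjusted p under 0.05, with 4 of the 10 genes among the higher. Leaving out 1 array gave 60 to 214 higher and 112 to 799 lower. Both upper ends came without control replicate 3, and the next highest, 86 and 208, without control replicate 2. The cause of these shifts was not tested.

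The values that turned their sign were all near 0 and passed in no fit. HK1 had 0.0286 after quantile normalization and 0.00225 with the covariate, and PFKM had 0.0194 after quantile normalization. PFKL had -0.0508 and PFKP -0.0105 with the covariate, and PFKFB2 had 0.0190. PFKP had -0.0160 after centring. Without hypothermia replicate 3, PFKL had -0.00311 and PFKFB2 0.0109, and without control replicate 2, PFKP had -0.00156 and PFKFB2 0.00886. Over the fits that leave out 1 array the range was -0.00311 to 0.0868 for PFKL, -0.00156 to 0.0347 for PFKP and -0.0242 to 0.0109 for PFKFB2. The 8 pairs of family members moved by less than the spread between replicates in all 64 alternative values. Most of these values could not have moved further. Centring cancels in a within-array difference, and leaving out 1 of 3 arrays always shifts a group mean by less than that spread. Only the values after quantile normalization could have moved by more.

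The replicate numbers were not taken to pair the samples. Deviations of same-numbered arrays correlated at -0.0817, 0.114 and 0.215 over all features for numbers 1, 2 and 3. With the replicate block HK2 had an adjusted p = 0.0748, PFKFB3 0.0757 and TXNIP 0.0805 from limma, with unchanged fold changes, and over all features 122 were higher and 304 lower. The 10 genes have 1 feature each, so a second feature gave no value for them. Without 1 array, a group of 2 is assumed to vary like the other.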
